A study of Mus musculus with 19 samples.

Results

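The genes of MHC class II presentation were followed through every library of a study of sorted cells of the central nervous system. The 7 listed genes were H2-Aa, H2-Ab1, H2-Eb1, H2-DMa, H2-DMb1, Cd74 and Ciita, found in each table by gene symbol without regard to letter case. Astrocytes had 6 of the 7 among 6376 genes, microglia 6 among 3067 and monocytes 7 among 3776, since Ciita was analysed in monocytes alone.

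MHC class II molecules carry peptides of engulfed proteins to the cell surface, where CD4+ T cells read them. The alpha and beta chains assemble in the endoplasmic reticulum around the invariant chain Cd74, lysosomal proteases trim Cd74 to a short peptide that fills the groove, and the H2-DM heterodimer exchanges that peptide for antigen. Transcription of the whole set depends on the coactivator Ciita, which docks on factors bound to a shared promoter module, and interferon gamma induces Ciita. In EAE (experimental autoimmune encephalomyelitis), the inflammatory disease that CD4+ T cells drive in mice immunized with myelin, infiltrating monocytes and dendritic cells carry abundant class II, activated microglia acquire it, and astrocytes are known to carry little.

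All 19 libraries came from female C57Bl/6 mice, labelled wild type, at postnatal day 85 with EAE, which was induced with the myelin peptide MOG35-55 (25 µg per mouse) in complete Freund's adjuvant. Before that each mouse had received a lentivirus in the brain, pLenti-Gfap-GFP-shXbp1 or pLenti-Gfap-GFP-shScramble, with GFP and a hairpin under the astrocyte promoter of Gfap. The libraries labelled shXbp1 numbered 4 for astrocytes, 3 for microglia and 2 for monocytes, against 4, 4 and 2 libraries labelled shScrmbl. The product of Xbp1 switches on folding genes when the endoplasmic reticulum is under stress. The labels give 1 central nervous system per mouse, but not the antibodies of the sort, not whether sorted astrocytes were GFP+, and not whether libraries of different cell types came from the same mouse. By its promoter the hairpin was aimed at astrocytes, so microglia and monocytes were measured as neighbours of the targeted cells. Counting was at 3′ ends, and the authors deposited a normalized signal per gene and library, in 1 table per cell type.

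Libraries held between 10039 and 302003 counts, and 1 count was worth a signal of 4.22 to 76.0. The signal was compared within a table only, and levels set across cell types below describe tables that were normalized separately. Class II genes together took 0.0386% to 0.209% of the counts of a library in astrocytes, 0.299% to 0.992% in microglia and 0.914% to 1.21% in monocytes. The counted Xbp1 transcript averaged 49.5 ± 22.3 in shXbp1 astrocytes and 49.8 ± 30.3 in shScrmbl astrocytes (SD, n = 4 each). These means rest on 28 and 22 counts in all, with 1 count in each of shScrmbl libraries 1 and 4. No knockdown was seen at the 3′ end, where counts can also come from a cut transcript, but this depth could miss one. Xbp1 ran from 0 to 76.0 in shXbp1 and from 0 to 103 in shScrmbl microglia, on 2 and 16 counts, and averaged 214 ± 126 in shXbp1 and 154 ± 39.8 in shScrmbl monocytes (n = 2 each). Markers of other cells were present in the astrocyte libraries: the summed signal of choroid plexus markers, led by Ttr, was 147400 to 272679 in shXbp1 and 211086 to 307901 in shScrmbl libraries, while 11 astrocyte markers summed to 2422 to 3446 in shXbp1 and 2277 to 2592 in shScrmbl libraries, with Gfap not analysed here. Markers of myeloid cells, which also carry class II, are given with the results.

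The promoters of some of these genes hold elements of a common kind. RefSeq windows (GRCm38.p6, 250 bases before to 50 after a gene's start) were at hand for 4 of the 7 genes, 5 windows in all. They were searched on both strands for an X box core (AACTGATG, part of the X box that RFX binds), a cyclic AMP response element (CRE, TGACGTCA, a letter match to the X2 box) and a Y box (TGATTGG, which holds the reverse of the CCAAT sequence that NF-Y binds), with none of the 3 letter strings overlapping another. The letters were chosen with these promoters in view, so their presence is a description. The stretch from the X box or CRE to the Y box is printed below, 5′ to 3′ on the gene's strand, with those elements in capitals. H2-Aa lies at chr17:34287852-34287912 (minus strand), H2-Eb1 at chr17:34305763-34305827 (plus) and H2-DMb1 at chr17:34153084-34153149 (plus).
H2-Aa: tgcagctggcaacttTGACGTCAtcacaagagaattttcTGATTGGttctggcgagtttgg
H2-Eb1: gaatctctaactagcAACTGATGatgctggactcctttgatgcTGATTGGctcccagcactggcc
H2-DMb1: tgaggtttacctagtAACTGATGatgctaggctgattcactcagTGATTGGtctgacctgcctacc

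The Y box is the only searched element common to the 3 promoters, since H2-Aa had the CRE and the other 2 the X box core. In H2-Aa the CRE began 74 bases before the start site (position -74) and the Y box at -50, with 16 bases between them. The X box core began at -89 in H2-Eb1 and at -92 in H2-DMb1, the Y box at -61 and -63, with 20 and 21 bases between. Among 32851 mouse promoter windows 0.776% held the X box core, 1.79% the CRE and 7.82% the Y box. An X box core or CRE followed within 40 bases by a Y box occurred in 17 windows of 17 genes, which is 0.0629% of 27025 genes. The 3 genes printed above are among these 17, and so is H2-Eb2, another class II beta chain gene. Neither of the 2 H2-DMa windows held these letters in this order, which says only that they are not in those windows.

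The 2 chains of I-A, the beta chain of I-E and both DM genes lie in the class II region of chromosome 17 (GRCm38, GENCODE M21). H2-Aa spans 34282744 to 34287823 on the minus strand. On the plus strand H2-DMa spans 34119541 to 34139101, H2-DMb1 34153072 to 34160230, H2-Ab1 34257689 to 34269419 and H2-Eb1 34305867 to 34316674. The printed H2-DMb1 stretch and both H2-DMa windows lie inside these GENCODE spans, so the 2 annotations start these genes at different places. The promoter positions above are counted from the RefSeq start. Ciita lies on chromosome 16 at 10480059 to 10528418, and Cd74 on chromosome 18 at 60803848 to 60812652, both on the plus strand. Within the last 500 bases of its transcripts H2-DMb1 shared 27.4% of its 50-base stretches with H2-DMb2, so its counts are uncertain, while each of the other 6 genes shared 0% with another gene. The spans of H2-DMa, Ciita and H2-Eb1 overlap Brd2, Dexi and Gm20513 on the opposite strand, and whether counting used strand is not given in the sources used here. On the same strand H2-DMa overlaps CR974462.3, and Cd74 overlaps the microRNA gene Mir5107.

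Class II signal was highest in monocytes for H2-Aa, H2-Ab1, H2-Eb1 and H2-DMb1, and in microglia for H2-DMa and Cd74. Astrocyte libraries had the lowest median of all 6 genes measured in each table. H2-Aa encodes the alpha chain of I-A. It had a median signal of 6443 in monocytes (range 3590 to 8040, n = 4), 3581 in microglia (1064 to 6105, n = 7) and 315 in astrocytes (146 to 1408, n = 8). Neighbouring cell types overlapped in range for this gene, as they did for H2-Ab1 (median 2232 in monocytes, 1518 in microglia, 146 in astrocytes) and H2-Eb1 (1098, 960 and 120). Cd74 alone separated astrocytes from the others, with 0 to 139 in astrocytes, 152 to 571 in microglia and 152 to 586 in monocytes. The 2 DM genes overlapped between all neighbours in the order.

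**Figure D1:**
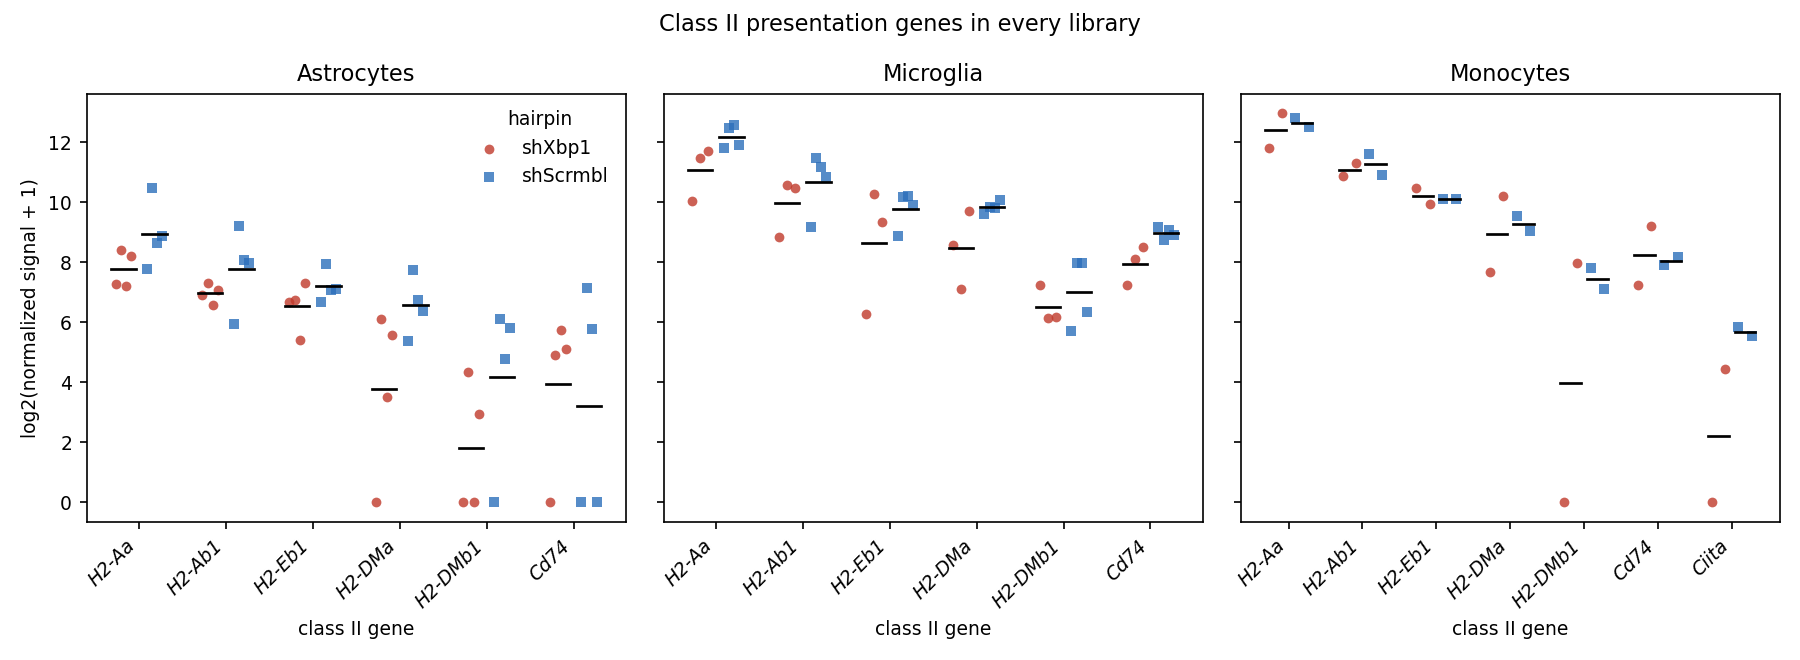
Signal of each class II gene in every library, as log2(normalized signal + 1) on the vertical axis, in panels for astrocytes, microglia and monocytes; red circles are shXbp1 libraries, blue squares shScrmbl libraries and black lines group means. Microglia H2-Aa and Cd74 are the genes of that panel whose groups do not overlap, and points at 0 are libraries without a count.

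In astrocytes the mean signal of all 6 class II genes was lower in shXbp1 than in shScrmbl libraries, but no gene passed the test over all genes, and the edgeR difference of each was smaller or turned without shScrmbl library 2. The I-A chains H2-Aa and H2-Ab1 averaged 232 ± 97.0 and 126 ± 27.1 in shXbp1 astrocytes, against 624 ± 533 and 291 ± 220 in shScrmbl astrocytes (SD, n = 4 each). H2-DMa averaged 31.1 ± 31.3 in shXbp1 and 111 ± 74.5 in shScrmbl astrocytes. Groups overlapped for each of the 6 genes. In such sorted bulk samples, fewer cells of a type and less RNA per cell cannot be told apart.

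H2-Aa had a signal of 154, 337, 146 and 292 in shXbp1 astrocyte libraries 1 to 4, against 221, 1408, 399 and 469 in shScrmbl libraries 1 to 4. H2-Ab1, its beta chain, had 119, 159, 93.7 and 133 in shXbp1 libraries, against 60.2, 590, 266 and 248 in shScrmbl libraries. For both chains shScrmbl library 2 stood highest and shScrmbl library 1 lay within or below the shXbp1 values. The H2-Aa values rest on 9, 70, 14 and 44 counts in shXbp1 and 11, 334, 15 and 17 counts in shScrmbl libraries. The log2 difference of H2-Aa was -1.18 ± 0.48 (SE) by limma on log2(signal + 1), with an adjusted p of 0.824, and -1.47 by edgeR on whole counts recovered from the signal (adjusted p = 0.638). H2-Ab1 differed by -0.83 ± 0.53 by limma (adjusted p = 0.824) and by -1.31 by edgeR (adjusted p = 0.644).

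H2-Eb1, the beta chain of the second class II molecule I-E, has no alpha partner in C57BL/6 mice, whose I-E alpha gene carries a deletion. Its signal was 102, 106, 41.6 and 159 in shXbp1 astrocytes, against 100.3, 245, 133 and 138 in shScrmbl astrocytes. The 3 highest shXbp1 values lie within the shScrmbl range, and the log2 difference was -0.65 ± 0.47 by limma (adjusted p = 0.824) and -0.68 by edgeR (adjusted p = 0.839).

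The peptide exchanger and the invariant chain were thinly counted in astrocytes. H2-DMa, the alpha subunit of DM, had 0, 67.4, 10.4 and 46.5 in shXbp1 libraries, against 40.1, 215, 107 and 82.7 in shScrmbl libraries. The 0 in shXbp1 library 1 allows a signal of up to 51.2 (3 counts), which reaches into the shScrmbl range. H2-DMa differed by -2.77 ± 1.12 by limma and -1.73 by edgeR (adjusted p = 0.824 and 0.638), and a 0 weighs heavily on the log2(signal + 1) scale. H2-DMb1, the beta subunit, had 0, 19.2, 0 and 6.64 in shXbp1 libraries, against 0, 67.5, 26.6 and 55.2 in shScrmbl libraries, from 5 and 19 counts in all. Cd74 had 0, 28.9, 52.0 and 33.2 in shXbp1 libraries, against 0, 139, 53.3 and 0 in shScrmbl libraries. Its sign depended on the scale, at 0.71 by limma and -1.21 by edgeR, so no direction is given for Cd74 in astrocytes.

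By limma 0 of 6366 astrocyte genes were called (0%), with 298 at an unadjusted p under 0.05. By edgeR 1 gene was called (0.0157%, with 415 at an unadjusted p under 0.05) and by DESeq2 0 (0%, with 131), and no class II gene was among these calls. All 6 class II genes differed in the lower direction by edgeR, as did 46.5% of all genes, and 4 of the 6 had an unadjusted edgeR p under 0.05 in that direction (H2-Aa, H2-Ab1, H2-DMa and H2-DMb1), against 2.83% of all genes. Their median edgeR difference was -1.39, beside 0.05 for all genes; by limma the medians were -1.002 and 0.42, with 5 of 6 below 0 against 31.8% of all genes. No class II gene had groups apart in the lower direction, against 0.785% of all genes. Without shScrmbl library 2 the count of 4 fell to 0 of 6 (0.895% of all genes), 5 of 6 lay below 0, and H2-Aa differed by -0.58 by edgeR and -0.67 by limma. The edgeR differences of the others were then -0.52 for H2-Ab1, -0.23 for H2-Eb1, -0.88 for H2-DMa, -1.30 for H2-DMb1 and 0.85 for Cd74. Without shScrmbl library 1, in turn, edgeR gave H2-Aa an adjusted p of 0.00367 (log2 difference -1.75), and without shXbp1 library 2 one of 0.0278 (-1.74).

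**Figure D2:**
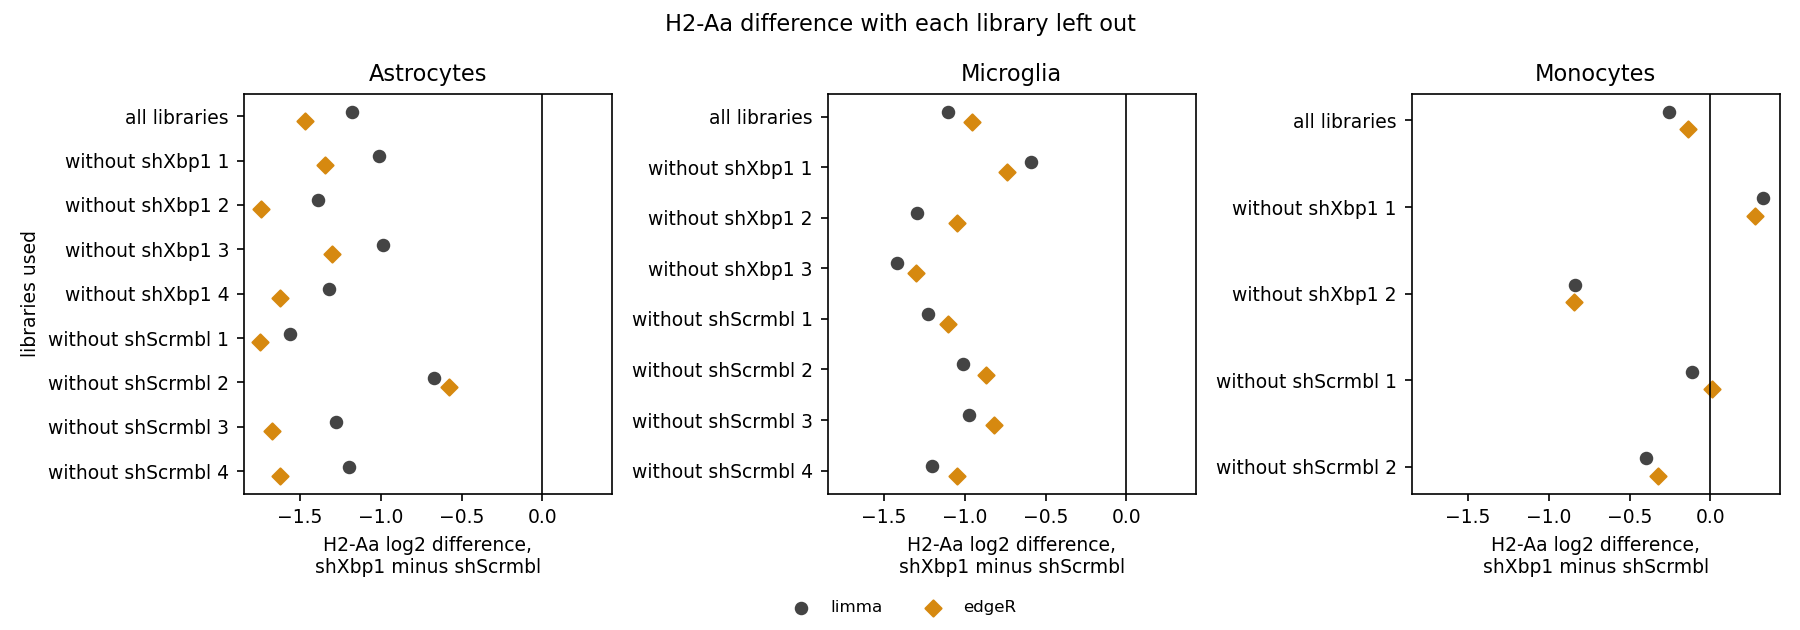
Log2 difference of H2-Aa, shXbp1 minus shScrmbl, on the horizontal axis, with all libraries (top row) and with each library left out in turn; grey circles are limma, orange diamonds edgeR. In astrocytes the point nearest to 0 is that without shScrmbl library 2 (-0.58 by edgeR), in microglia all points stay between -1.42 and -0.59, and in monocytes they lie on both sides of 0.

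Myeloid cells are rich in class II, and shScrmbl library 2 was also the astrocyte library with the highest sum of their markers. The 28 markers of microglia, monocytes and macrophages measured there summed to 2748 to 4918 in shXbp1 libraries and 2227 to 11474 in shScrmbl libraries, where the other 3 lay at or below 3723. Of 17 microglia markers 15 lay lower in shXbp1 by edgeR (median difference -0.63), and of 11 monocyte and macrophage markers 9 did (median -0.91), while 11 astrocyte markers had a median of 0.50. Limma gave another balance, with 5 of 17 microglia markers lower (median 0.11) and 7 of 11 monocyte and macrophage markers (-0.10), so the direction of the myeloid markers depends on the tool. The median summed signal of the microglia markers was 2472 in shXbp1 and 2102 in shScrmbl astrocytes. Lyz2, a lysozyme of monocytes and macrophages, averaged 251 ± 199 in shXbp1 and 1139 ± 1610 in shScrmbl astrocytes, and C1qb, a complement subunit made by microglia, 238 ± 63.2 and 465 ± 315. Other markers of both lists had higher means in shXbp1. Csf1r, on the microglia list, averaged 261 ± 43.1 in shXbp1 and 210 ± 256 in shScrmbl astrocytes. Ifitm3, on the monocyte and macrophage list, averaged 454 ± 327 and 394 ± 193. Ly6c2 and Ccr2, which define inflammatory monocytes, were not analysed here in astrocytes. The part of such cells in the class II values was not tested.

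Set against the summed signal of the 28 listed myeloid markers of the same library, the astrocyte groups lay apart. The largest of these markers by mean signal, Sparc, averaged 713 ± 13.8 in shXbp1 and 687 ± 226 in shScrmbl astrocytes. The next, Lyz2, was lower in shXbp1, as given above. Whether the signal of each marker came from myeloid cells was not tested. The summed class II signal was 0.115, 0.146, 0.125 and 0.184 of the summed myeloid marker signal in shXbp1 libraries 1 to 4, against 0.189, 0.232, 0.272 and 0.267 in shScrmbl libraries 1 to 4 (mean 0.142 ± 0.030 and 0.240 ± 0.038). The groups did not overlap, but the nearest values, 0.184 and 0.189, lie within counting error of each other. As a share of class II and myeloid counts together, these were 15.5% (95% Wilson interval 12.96% to 18.5%) in shXbp1 library 4, from 101 class II counts, and 15.9% (10.6% to 23.1%) in shScrmbl library 1, from 21. Taken against microglia markers alone (0.215 ± 0.060 in shXbp1, 0.412 ± 0.115 in shScrmbl) or against monocyte and macrophage markers alone (0.455 ± 0.113 and 0.651 ± 0.170), the groups overlapped. Per 1000 units of myeloid marker signal H2-Aa stood at 47.1 to 80.1 in shXbp1 and 99.1 to 126 in shScrmbl astrocytes, H2-DMa at 0 to 13.7 and 18.02 to 29.4, and the other 4 genes overlapped. That is 2 of 6 class II genes with groups apart in the lower direction on this scale, against 0.126% of all genes (0.785% on plain signal). Dividing by the marker sum adds the spread of that sum to genes that do not follow it. The 0.126% is therefore not a neutral reference, and no excess is read from the 2 genes. H2-DMa rests on 22 counts in shXbp1 and 60 in shScrmbl libraries.

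**Figure D3:**
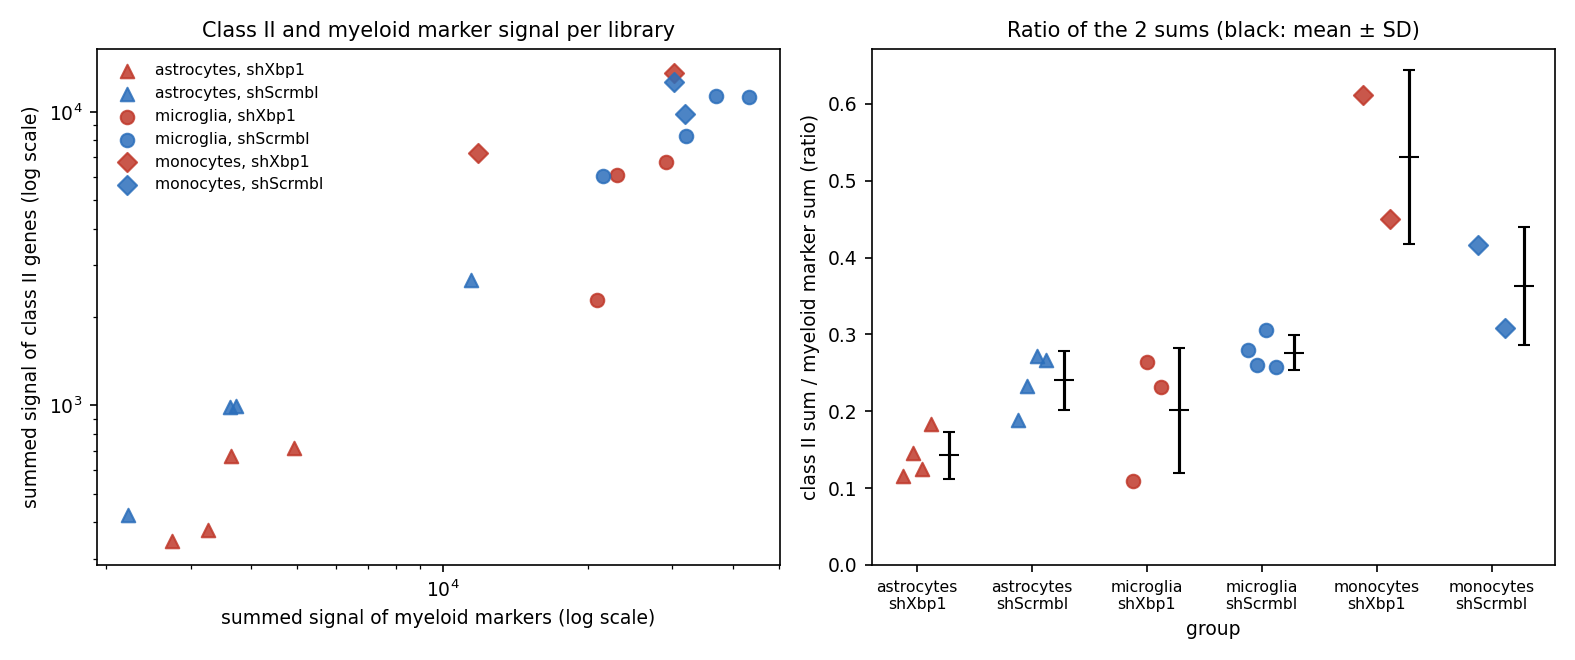
Left, summed signal of the class II genes against summed signal of the myeloid markers, 1 point per library, both axes logarithmic; right, the ratio of these sums by group, with black bars for mean ± SD. Red marks are shXbp1 and blue marks shScrmbl libraries, triangles astrocytes, circles microglia and diamonds monocytes; astrocyte ratios run from 0.115 to 0.184 in shXbp1 and from 0.189 to 0.272 in shScrmbl libraries.

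In microglia H2-Aa was lower in all 3 shXbp1 libraries than in all 4 shScrmbl libraries, and so was Cd74, yet neither passed the test over all genes. H2-Aa averaged 2423 ± 1208 in shXbp1 microglia (SD, n = 3) and 4782 ± 1277 in shScrmbl microglia (n = 4). Cd74 averaged 262 ± 104 and 503 ± 61.8. The other 4 genes had lower means in shXbp1 microglia and overlapping groups.

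H2-Aa had 1064, 2829 and 3376 in shXbp1 libraries 1 to 3, against 3581, 5641, 6105 and 3800 in shScrmbl libraries 1 to 4. Counts behind H2-Aa ran from 14 to 141 in shXbp1 and from 69 to 654 in shScrmbl libraries, so the lowest value, in shXbp1 library 1, is also the least precise. The nearest values, 3376 and 3581, lie within counting error, with 95% Poisson intervals of 2842 to 3981 in shXbp1 library 3 and 2787 to 4533 in shScrmbl library 1. The difference was -1.10 ± 0.37 by limma (95% interval -1.85 to -0.36, adjusted p = 0.804) and -0.96 by edgeR (adjusted p = 0.444). Leaving out any 1 library kept it between -1.42 and -0.59 by limma and between -1.30 and -0.74 by edgeR, with no adjusted p below 0.177.

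The remaining chains were spread more widely within the groups. H2-Ab1 had 456, 1518 and 1436 in shXbp1 microglia, against 571, 2864, 2315 and 1840 in shScrmbl microglia. H2-Eb1 had 76.0, 1242 and 646 in shXbp1 microglia, against 467, 1148, 1186 and 960 in shScrmbl microglia. The lowest value of both genes was that of shXbp1 library 1, the shallowest of the 19 libraries, where H2-Eb1 rests on 1 count. The log2 differences were -0.70 (limma) and -0.74 (edgeR) for H2-Ab1 and -1.16 and -0.56 for H2-Eb1. Without shXbp1 library 1 the limma difference of H2-Eb1 was 0.019 and that of H2-Ab1 -0.14.

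H2-DMa had 380, 138 and 838 in shXbp1 microglia, against 779, 908, 905 and 1080 in shScrmbl microglia, overlapping by the value of shXbp1 library 3. H2-DMb1 had 152, 69.0 and 71.8 in shXbp1 microglia, against 51.9, 252, 252 and 80.0 in shScrmbl microglia, from 6 and 50 counts. Cd74, the invariant chain, had 152, 276 and 359 in shXbp1 microglia, against 571, 429, 532 and 480 in shScrmbl microglia, with every shXbp1 value below every shScrmbl value. The shXbp1 values rest on 2, 4 and 15 counts, and the nearest pair lies within counting error, with Poisson intervals of 201 to 592 in shXbp1 library 3 and 297 to 600 in shScrmbl library 2. By limma H2-DMa differed by -1.37 ± 0.46 and Cd74 by -1.01 ± 0.44, and by edgeR both were smaller, at -0.81 and -0.77 (adjusted p from 0.804 to 0.930 over the 4 tests).

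Among 3066 microglia genes 0 passed limma (0%, while 166 had an unadjusted p under 0.05), 12 passed edgeR (0.391%) and 0 passed DESeq2 (0%, with 62), and none of the calls was a class II gene. All 6 class II genes differed in the lower direction by edgeR against 55.4% of all genes, with a median of -0.79 beside -0.09, and by limma against 65.5%, with a median of -1.06 beside -0.39. An unadjusted edgeR p under 0.05 in the lower direction was found for 3 of 6 (H2-Aa, H2-Ab1 and H2-DMa), against 4.04% of all genes. Groups stood apart in the lower direction for 2 of 6, against 4.92% of all genes. The count of 3 became 5 without shScrmbl library 1, 1 without shXbp1 library 1 or shScrmbl library 2 and 0 without shScrmbl library 3, and all 6 differences stayed below 0 by edgeR whichever library was left out.

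Microglia libraries also differed in markers of infiltrating cells. Of 17 monocyte and macrophage markers 16 lay lower in shXbp1 by edgeR (median -1.44), and 3 of them passed its test over all genes. Lyz2 was 1 of the 3, at 4133 ± 3193 in shXbp1 and 11155 ± 7132 in shScrmbl microglia (edgeR log2 difference -1.45, adjusted p = 0.038). The summed signal of that list ran from 3724 to 10211 in shXbp1 and from 7163 to 28581 in shScrmbl microglia, while the 18 microglia markers summed to 12833 to 20901 and 14326 to 20400, with a median difference of 0.30. Class II signal per unit of monocyte and macrophage markers was 0.678 ± 0.129 in shXbp1 and 0.614 ± 0.199 in shScrmbl microglia, and per unit of microglia markers 0.309 ± 0.171 and 0.588 ± 0.204, with overlapping groups in both. Over all 35 markers it was 0.109, 0.263 and 0.232 in shXbp1 libraries, against 0.280, 0.260, 0.306 and 0.257 in shScrmbl libraries. The part of infiltrating cells in the class II values of microglia was not tested.

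In monocytes the class II genes did not differ in 1 direction, and the 2 shXbp1 libraries lay further apart than the groups for most genes. H2-Aa had 3590 and 8040 in shXbp1 monocytes, against 7085 and 5800 in shScrmbl monocytes. H2-Ab1 had 1871 and 2533 in shXbp1, against 3144 and 1930 in shScrmbl monocytes, and H2-Eb1 1416 and 984, against 1104 and 1093. Both shScrmbl values of H2-Aa and H2-Eb1 fell between the 2 shXbp1 values. The log2 differences by limma and edgeR were -0.25 and -0.14 for H2-Aa, -0.18 and -0.19 for H2-Ab1, and 0.10 and 0.11 for H2-Eb1.

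H2-DMa had 202 and 1172 in shXbp1 monocytes, against 741 and 528 in shScrmbl monocytes, and Cd74 had 152 and 586, against 238 and 291. For both genes shXbp1 library 1 was the lowest and shXbp1 library 2 the highest of the 4. H2-DMb1 had 0 and 251 in shXbp1 monocytes, against 224 and 137 in shScrmbl monocytes. The 0 allows up to 152 at the depth of that library. H2-DMa changed sign between limma (-0.36) and edgeR (0.22), and Cd74 differed by 0.18 and 0.61.

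Ciita, the coactivator on which the other 6 genes depend, had 0 and 20.9 in shXbp1 monocytes, against 55.9 and 45.5 in shScrmbl monocytes. Both shXbp1 values lay below both shScrmbl values, but they rest on 1 count against 9. The pooled ratio of counts was 0.298, with a 95% counting interval from 0.00681 to 2.15, so the depth cannot show a difference. The adjusted p was 0.887 by limma and 0.988 by edgeR.

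Of 3775 monocyte genes limma called 101 (2.68%), of which 99 were at 0 in both shXbp1 libraries, edgeR called 1 (0.0265%) and DESeq2 0 (0%, with 21 at an unadjusted p under 0.05), and no class II gene was called by any of the 3. By edgeR 4 of 7 class II genes lay below 0 against 57.0% of all genes, with a median of -0.12 beside -0.17, and by limma 5 of 7 against 65.8%, with medians of -0.25 and -0.42. An unadjusted edgeR p under 0.05 in the lower direction was found for 0 of 7, against 3.55% of all genes. Groups stood apart in the lower direction for 1 of 7, Ciita, against 25.0% of all genes. With either shXbp1 library left out, the other stood alone and was assumed to vary like the shScrmbl pair. Without shXbp1 library 2 H2-Aa differed by -0.84 in both tools, and without shXbp1 library 1 by 0.33 and 0.27.

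The monocyte libraries also held genes listed as markers of other cells that carry class II. Jchain, Mzb1 and Cd79b, of plasma and B cells, summed to 1517 to 1612 in shXbp1 and 713 to 1876 in shScrmbl monocytes. Xcr1, Siglech, Bst2, Clec10a, Ccr7 and Cd24a, on the dendritic cell list, summed to 796 to 961 and 1120 to 1174, with Flt3 and Zbtb46 not analysed here. Most of that sum was Xcr1, at 378 ± 180 in shXbp1 and 809 ± 101 in shScrmbl monocytes. By edgeR 4 of the 6 genes lay higher in shXbp1 and 2 lower (median 0.39), so the sum gives no direction for the list. Mean Xcr1 signal was 594 in monocytes, 1289 in microglia and 929 in astrocytes, in tables normalized separately. Siglech is also on the list of microglia markers. The sum is therefore not read as a measure of dendritic cells. The sum of 17 monocyte and macrophage markers was 7129 and 24244 in shXbp1, and 26061 and 25988 in shScrmbl monocytes, so class II signal over all 32 myeloid markers was 0.611 and 0.450, against 0.417 and 0.309. This ratio was higher in both shXbp1 libraries, while the astrocyte ratio was lower. With 2 libraries a group, groups often stand apart, as 25.0% of all monocyte genes did in the lower direction on plain signal. The share of all genes on the ratio scale was not computed for monocytes, so no contrast with astrocytes is drawn. The ratio to monocyte and macrophage markers alone was 1.014 and 0.560 in shXbp1 and 0.483 and 0.378 in shScrmbl libraries. Against microglia markers alone the groups overlapped, with means of 1.92 in shXbp1 and 2.36 in shScrmbl monocytes. The part of these cells was not tested.

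**Figure D4:**
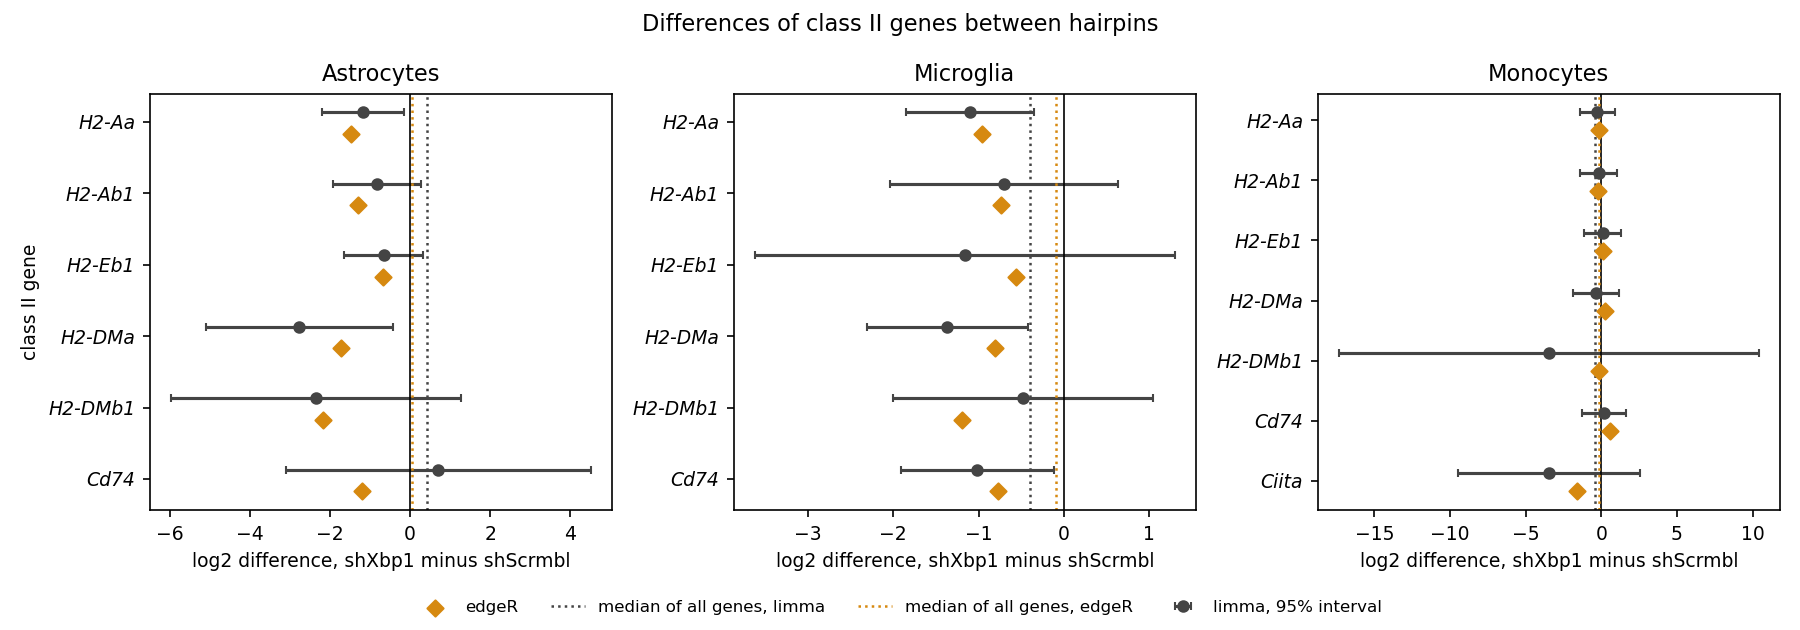
Log2 difference of each class II gene, shXbp1 minus shScrmbl, on the horizontal axis of each cell type's panel; grey circles are limma with 95% intervals, orange diamonds edgeR, dotted lines the medians of all genes and the solid line 0. The tools differ widely where some libraries have no count, as for Cd74 in astrocytes (0.71 and -1.21) and H2-DMb1 in monocytes (-3.47 by limma, -0.12 by edgeR).

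Of 33 listed genes that serve the class II pathway 17 were measured in astrocytes, 15 in microglia and 18 in monocytes, and no test called any of them in any cell type. By edgeR 13 of 17 lay lower in shXbp1 astrocytes (median -0.47), 9 of 15 in microglia (-0.19) and 10 of 18 in monocytes (-0.23), beside the shares of all genes given above. By limma 6 of 17 lay lower in astrocytes, with a median of 0.37, so the astrocyte direction turned with the tool, while 10 of 15 lay lower in microglia (-0.28) and 12 of 18 in monocytes (-0.58). In astrocytes Ctss, the cathepsin that trims the invariant chain, averaged 1000.2 ± 342 in shXbp1 and 1725 ± 1911 in shScrmbl libraries (edgeR log2 difference -0.85, adjusted p = 0.895). Ctss averaged 9618 ± 2167 in shXbp1 and 15547 ± 3135 in shScrmbl microglia (edgeR log2 difference -0.69, adjusted p = 0.899), and 7363 ± 3621 and 12128 ± 967 in monocytes (-0.71, adjusted p = 0.988). Ctsb, a lysosomal cathepsin, averaged 4597 ± 2148 in shXbp1 and 10735 ± 2930 in shScrmbl microglia (-1.21, adjusted p = 0.155). Ctsl, another cathepsin, averaged 963 ± 58.3 and 1114 ± 158 there. Ifi30, a thiol reductase that unfolds antigen, averaged 300 ± 146 in shXbp1 and 329 ± 209 in shScrmbl microglia.

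Interferon receptor and promoter factor genes of that list gave no call either. Ifngr1, an interferon gamma receptor chain, averaged 459 ± 63.8 in shXbp1 and 342 ± 110 in shScrmbl microglia (edgeR log2 difference 0.54, adjusted p = 0.996). Jak1, the kinase on that receptor, averaged 126 ± 46.4 in shXbp1 and 106 ± 64.0 in shScrmbl astrocytes, and Rfxank, a subunit of the X box factor RFX, 139 ± 19.0 and 145 ± 97.7.

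Class I genes, which present peptides made inside the cell and share the interferon response, had no call in any cell type. By edgeR 9 of 12 measured genes lay lower in shXbp1 astrocytes (median -0.70), 10 of 11 in microglia (-0.54) and 1 of 11 in monocytes (0.33). Of all genes 46.5% lay lower in astrocytes, 55.4% in microglia and 57.0% in monocytes. B2m, the light chain of class I, averaged 554 ± 364 in shXbp1 and 1308 ± 1287 in shScrmbl astrocytes, 5762 ± 1833 and 10481 ± 806 in microglia, and 8941 ± 6424 and 8797 ± 503 in monocytes. H2-K1 and H2-D1, heavy chains, averaged 1365 ± 441 and 1566 ± 614 in shXbp1 microglia, against 1532 ± 449 and 2152 ± 554 in shScrmbl microglia. Class II signal per unit of class I signal overlapped between hairpins in astrocytes (0.199 to 0.294 in shXbp1, 0.221 to 0.487 in shScrmbl) and in microglia (0.288 to 0.603 and 0.431 to 0.641). In monocytes it was lower in both shXbp1 libraries, at 0.698 and 0.726, against 0.931 and 0.740 in shScrmbl libraries. The nearest values there were 0.726 and 0.740, and 25.0% of all monocyte genes had groups apart in the lower direction on plain signal.

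Ratios between class II genes overlapped between hairpins. The ratio of H2-Ab1 to H2-Aa counts was 0.455 to 0.778 in shXbp1 and 0.273 to 0.667 in shScrmbl astrocytes, 0.426 to 0.537 and 0.159 to 0.508 in microglia, and 0.315 to 0.521 and 0.333 to 0.444 in monocytes. H2-DMa stood at 0 to 0.200 of H2-Aa in shXbp1 and 0.153 to 0.267 in shScrmbl astrocytes, and at 0.0488 to 0.357 and 0.148 to 0.284 in microglia. These ratios are of counts within a library, so they do not depend on its scaling.

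The genes most like the summed class II signal were ranked in the larger sets of libraries. Over the 8 astrocyte libraries and 3134 genes counted in each of them, the highest Pearson correlations on the log2 scale were those of Lyz2 (r = 0.97), Ftl1, the ferritin light chain (0.97), Lyz1 (0.96), the aldo-keto reductase gene Akr1b10 (0.95) and Mrpl40, of the mitochondrial ribosome (0.95). Without the 2 libraries farthest from the median, these were 0.84 to 0.94. Akr1b10 had a signal of 17.1 to 38.0 where 1 count was worth 4.22 to 27.6, so its correlation rests on few counts. Lyz1 and Lyz2 are near-identical copies whose counts may be split between them. Over the 7 microglia libraries and 1284 genes they were Pld3, Ctsa and Ctsb, of the lysosome (each 0.96), AW112010 (0.95) and Rnasek (0.95), and 0.76 to 0.93 without the 2 farthest libraries. These correlations describe libraries that share depth, hairpin and cell mixture, and the genes were picked for them.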

How the data were processed

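RNA of sorted astrocytes (8 libraries), microglia (7) and monocytes (4) was counted by 3′ digital gene expression, per the labels' protocols. The authors deposited 1 table of normalized signal per cell type, with no negative values. BWA 0.7.10, limma 3.34.1 and mm10 appear in the submitters' processing notes with no role; the counter, the annotation, filters and scaling are not given in the sources used here. Every deposited signal above 0 was a whole multiple of the smallest value in its column (100% within 0.01 of a count), so whole counts were recovered by division. Counts may be reads or molecules, which is not stated, and intervals and floors (3 counts) cover counting error only. No replicates were identical (chi-square per gene 1.15 to 3.80 over 23 pairs of a group), and p-values measure the spread between libraries.

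The 2 hairpins were compared within each cell type, without covariates. The main test was limma 3.58.1 (R 4.3.3) on log2(signal + 1), with moderated variances that follow a trend and resist outliers, for genes whose signal reached 1 in at least the number of libraries of the smaller group, with Benjamini-Hochberg adjusted p under 0.05 over all genes of the table (6366, 3066 and 3775). A difference on this scale depends on the pseudocount for low genes. The edgeR 4.0.16 quasi-likelihood test and DESeq2 1.42.0 were run on the recovered counts, and scripts were tested on simulated data. The other alternatives were pseudocounts of 10 and 50, no filter, a mean signal of at least 50, quantile normalization, RLE size factors, filterByExpr, the replicate number as a block and leaving out each library. The repeat of the counts of class II genes at an unadjusted p without each library was added after seeing the data.

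The 7 genes, the marker and pathway lists and the promoter letters were chosen with earlier results of these data known. Of the pathway list up to 6 genes with the highest mean signal were to be named per table and of the class I list up to 4; the 5 genes most like the class II sum were those with the highest Pearson r among genes counted in every library. Markers were named from their lists. A gene that the rule names is not reported here. Promoter sequences are those of RefSeq on GRCm38.p6, and coordinates those of GENCODE M21 on GRCm38. Sums and figures were made with Python 3.11.15 (pandas 2.3.3, numpy 2.4.6 and scipy 1.17.1, with matplotlib 3.10.9 for drawing).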

Additional observations from a re-analysis of the deposited data

Results flagged for a closer look

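Single libraries far from the others of their group were marked in 9 of 58 sets of class II genes and list sums checked in groups of 4. The cutoff marks about 1 in 20 sets of normally distributed values. Signals from few counts and unequal depth need not be so distributed, so the rate expected here is not known. The sets are not independent, since lists share libraries and some genes. In shScrmbl astrocytes 7 of the 9 marks were on library 2. Its sum was 11474.5 for the 28 myeloid markers (the other 3 libraries lay between 2227 and 3723), 5756 for the microglia markers among them (1745 to 2206), 10774 for the class II pathway list (2267 to 2565), 6393 for the class I list (1906 to 2454), 2627 for the dendritic cell list (662 to 938) and 375 for the neutrophil list (60.2 to 110). The seventh mark was a low one, with astrocyte markers at 2277 in library 2 and 2556 to 2592 in the others. The same library had the highest signal of all 6 class II genes in astrocytes, with H2-Aa at 1408, and the differences without it are given with the results.

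In shScrmbl microglia the microglia marker sum was 20400 in library 4, against 14326 to 14889 in the other 3, and the choroid plexus marker sum was 63844 in library 1, against 18040 to 25064.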

How the results depend on the processing

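Counts of called genes moved with the tool. In astrocytes limma called 0, edgeR with TMM or RLE factors 1 and 1, and edgeR with the replicate block 3; leaving out 1 library gave 0 by limma and 0 to 8 by edgeR. In microglia limma called 0 genes, 1 with a pseudocount of 50 and 6 with quantile normalization, edgeR 12 (TMM) and 11 (RLE), and 24 with the block; without 1 library limma called 0 to 3 and edgeR 0 to 23. In monocytes limma called 101 genes, against 0 with pseudocounts of 10 or 50, a mean signal of at least 50, quantile normalization, filterByExpr, DESeq2 or the block in edgeR, and 1 by edgeR with TMM or RLE; without 1 library limma called 0 to 1163 and edgeR 0 to 61. Same-numbered libraries of the 2 hairpins did not deviate together (correlations -0.004 to 0.064 in astrocytes, -0.002 to 0.058 in microglia, -0.076 in monocytes), so the numbers were not taken as pairs. With the replicate block, which leaves out shScrmbl library 4 of microglia, edgeR gave H2-Aa in microglia -1.11 with an adjusted p of 0.00225, and no other class II gene passed.

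Signs turned for Cd74 in astrocytes (main 0.71), to -0.14 with a pseudocount of 50, -0.20 with quantile normalization, -1.21 and -1.26 by edgeR with TMM and RLE, -1.01 by DESeq2 and -0.93 with the block in edgeR, and between -1.53 and 2.02 without 1 library. H2-DMa in monocytes (main -0.36) turned to 0.22 by edgeR with TMM, 0.27 with RLE, 0.22 with filterByExpr and 0.23 by DESeq2, and to between -1.63 and 0.91 without 1 library. Without 1 library H2-Eb1 in microglia ran from -1.99 to 0.019, and in monocytes H2-Aa from -0.84 to 0.33, H2-Ab1 from -0.55 to 0.19, H2-Eb1 from -0.20 to 0.37, H2-DMb1 from -7.46 to 0.52 and Cd74 from -0.81 to 1.15. Ciita ran from -5.69 to -1.23. Its lowest value, like that of H2-DMb1, was the limma one without shXbp1 library 2, where a single shXbp1 library was left. The cause of these changes was not tested. The shift of all genes between limma and edgeR (medians 0.42 and 0.05 in astrocytes, -0.39 and -0.09 in microglia, -0.42 and -0.17 in monocytes) exceeds 0.1. Depth limits H2-DMb1, Cd74 and Ciita most, and with 2 libraries a group no exact permutation test of monocytes can pass 0.05.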
